A study of Xenopus laevis with 6 samples.

Results

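Genes for enzymes and complexes that modify, remodel or assemble chromatin were compared between the animal and the vegetal end of the 8-cell embryo of the frog *Xenopus laevis*. Membership was defined by gene symbol. Members were all genes whose annotated symbol starts with hdac, kat, kdm, setd, smarc, chd or dnmt, together with a short list of single genes: the Polycomb genes ezh2, eed and suz12, the deacetylase sirt1, the methyltransferases suv39h1, prmt1 and prmt5, and the histone chaperones npm2, nap1l1, asf1a and asf1b. No probe set with a single gene symbol was analysed here for ezh1, ehmt1, ehmt2 or ino80, which the list also holds. This gave 61 members of 11303 named genes. The prefix kat also caught 4 katanin names (*katna1.S*, *katnal2.L*, *katnbl1.L* and *katnip.L*). These are named after the microtubule-severing protein katanin and are not acetyltransferases. They were kept as members and are described apart.

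Embryos came from natural matings of 2 pairs of adults and were fixed in ethanol and acetic acid before dissection. The 3 animal samples held animal blastomeres, which form the pigmented upper side of the embryo. The 3 vegetal samples held vegetal blastomeres trimmed to their vegetal-most part, without the equatorial region. Total RNA of each sample was amplified, given a biotin label and measured on 1 short-oligonucleotide array. No genotype, strain or added agent is given for either group, the number of embryos per sample is not stated, and nothing in the labels says that the replicates came from separate clutches. The p-values therefore measure the spread between these samples, which may be technical.

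DNA in the nucleus is wound around histones, and the enzymes of these families write, erase or read chemical marks on histones and DNA, or slide and exchange the histones themselves. Acetyltransferases and deacetylases set histone acetylation, SET-domain and arginine methyltransferases and the demethylases set histone methylation, and DNA methyltransferases copy methyl marks on cytosine. In the cleaving frog embryo nearly all of these proteins come from the egg or from messenger RNA that the egg stored, because the embryo's own genome is still largely silent. The frog is allotetraploid, and most genes have an .L and an .S copy (homeologs), which were treated as separate genes.

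Every value below is a scaled array intensity for 1 probe set per gene, the probe set with the highest mean log2 intensity over the 6 arrays. Intensities of different probe sets cannot be set against each other, so each gene is compared only with itself. Differences are animal minus vegetal on the log2 scale, folds come from those differences, and means are given ± SD (n = 3 arrays per group). Adjusted p-values are from limma (Benjamini-Hochberg adjustment, 19523 probe sets) with a threshold of 0.05. In 57 of the 61 members the representative probe set passed the filter on low intensity, and *asf1a.L*, *setdb2.S*, *smarca1.L* and *katnip.L* did not.

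Several facts about the arrays as a whole bear on what follows. Correlations of log2 intensity were 0.987 within the animal group, 0.981 to 0.983 within the vegetal group and 0.889 to 0.895 for pairs of arrays from both groups. The dissection was checked with localized RNAs: 3 of 3 animal RNAs were higher in animal samples and 8 of 8 vegetal and germ plasm RNAs were higher in vegetal samples. None of 3 follicle cell markers rose above the unspiked controls on any array, and 2 of 6 blood markers did on some arrays, with summed intensities of 8.8 to 16.2 in animal and 10.1 to 16.7 in vegetal arrays. For the control gene gapdh the 3′ probe set divided by the 5′ one averaged 4.18 ± 0.19 in animal and 7.35 ± 0.41 in vegetal ones (SD, n = 3 each; two-sided exact permutation p = 0.1, the smallest that 3 against 3 arrays can give). For actin the 3′ probe set divided by the middle one averaged 7.42 ± 0.47 in animal and 13.1 ± 1.5 in vegetal samples. For gapdh the 3′ probe set divided by the middle one averaged 2.16 ± 0.25 in animal and 2.74 ± 0.39 in vegetal samples, with overlapping groups (two-sided exact permutation p = 0.2, n = 3 each). The part of these ratios in the results was not tested.

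Chromatin genes divided almost evenly between both ends of the embryo. Of the 57 tested, 16 were higher in animal samples, 18 in vegetal samples, and 23 did not pass. These counts follow the representative probe set. In *setd4.L* and *dnmt1.S*, counted as vegetal, and *kdm2b.L*, counted as animal, another probe set passed in the opposite direction. Among all 8026 genes tested, 27.1% were higher in animal samples and 23.7% in vegetal samples, or 50.9% in either direction. The balance depended on how arrays were scaled: the animal share of the members' calls was 47.1% as deposited and 24.3% to 79.3% under 3 other scalings, described below. Without the katanin names the members' counts were 16 higher in animal, 17 higher in vegetal and 21 not passing. Because intensities are scaled within an array, and because the samples are pieces of embryos, a smaller share of a sample's RNA and fewer copies per cell cannot be told apart.

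Most of these differences were small. The median absolute difference of the members was 0.31 (1.24-fold), beside 0.36 (1.29-fold) for all genes tested. In 40 of the 57 members (70.2%) the difference was under 1.5-fold, beside 68.2% of all genes. The median difference was -0.05 for the members and 0.03 for all genes. Intensities of the 2 groups did not overlap in 39 members (68.4%), beside 58.3% of all genes tested. The members were also more often detectable: 55 of 61 (90.2%) lay above the highest unspiked control on all 6 arrays, beside 68.1% of all named genes, as a description and not a test. The share was similar, 125 of 142 (88.0%), in the list of other chromatin genes described below.

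**Figure D1:**
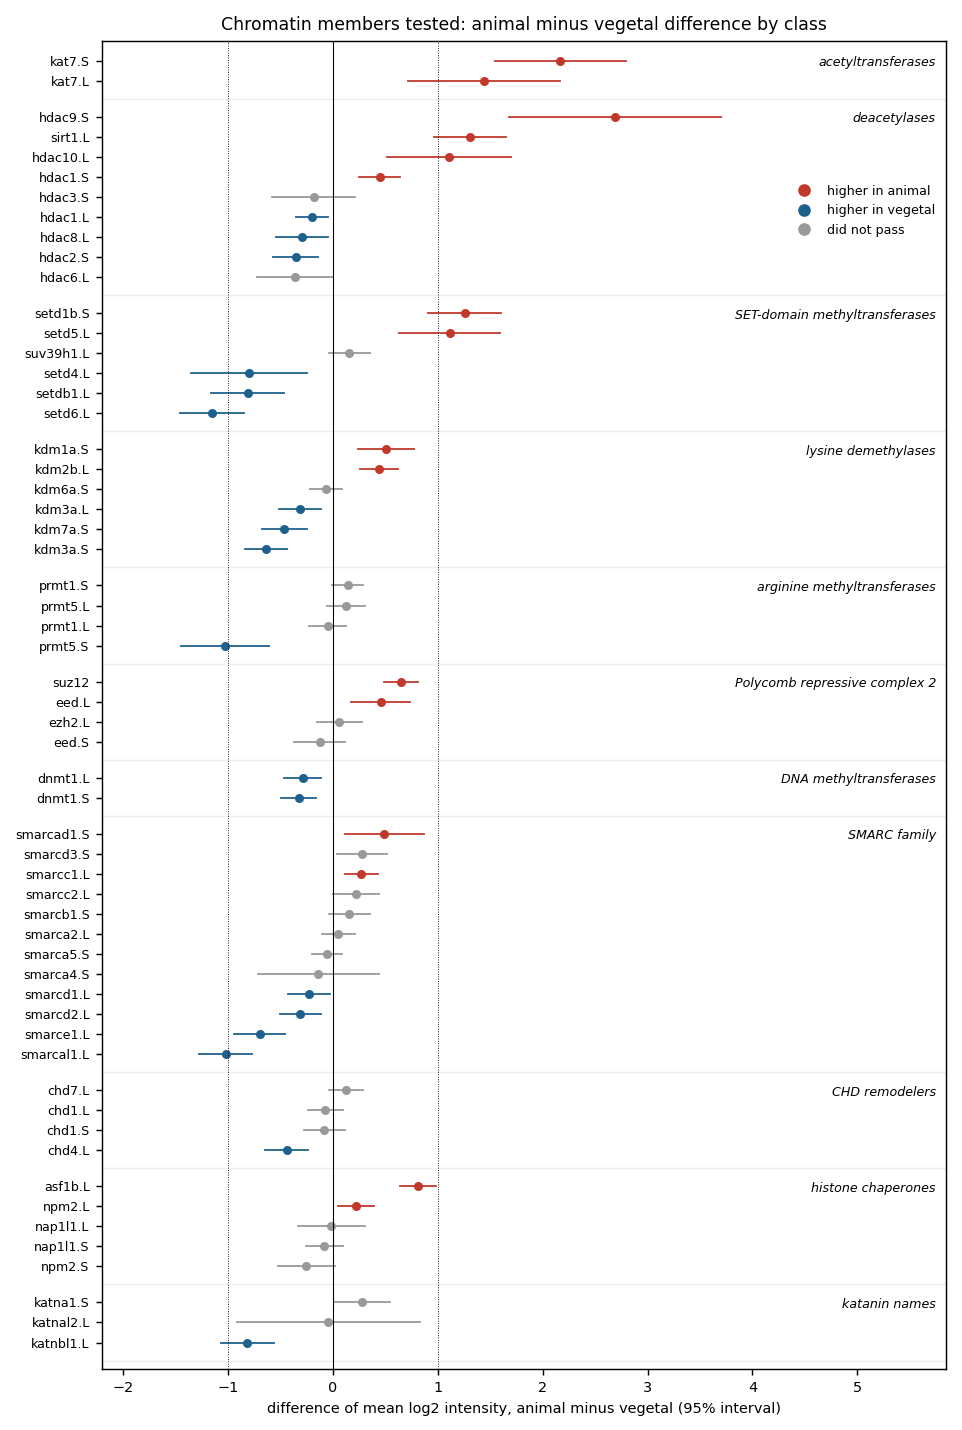
Differences of mean log2 intensity (animal minus vegetal) with 95% intervals for the 57 tested members, sorted within role classes; the dotted lines mark 2-fold. Red points (16) were higher in animal samples, blue points (18) in vegetal samples, and grey points (23) did not pass.

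As deposited, 10 members passed with a difference of 2-fold or more. In animal samples 7 were higher by this much (*kat7.S*, *kat7.L*, *hdac9.S*, *sirt1.L*, *hdac10.L*, *setd1b.S* and *setd5.L*). In vegetal samples 3 were (*setd6.L*, *prmt5.S* and *smarcal1.L*). Among all genes tested, 7.95% passed at 2-fold or more as higher in animal and 6.57% as higher in vegetal samples. Animal-side members of this size were acetyltransferases, deacetylases and SET-domain proteins. The size depended on how arrays were scaled. On the spiked controls *setd6.L*, *prmt5.S* and *smarcal1.L* fell under 2-fold (differences -0.92, -0.79 and -0.78). With arrays centred on their medians *hdac10.L*, *setd5.L* and *setd1b.S* did (0.83, 0.84 and 0.99).

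**Figure D2:**
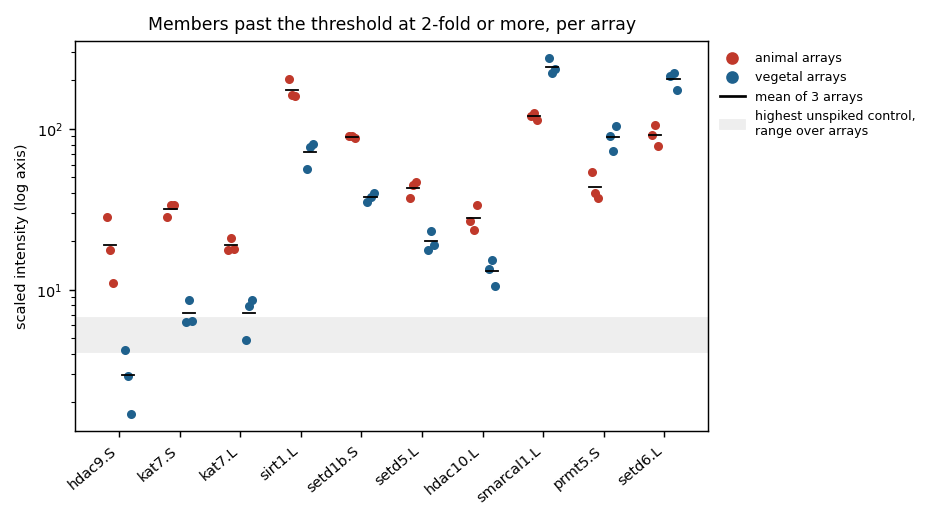
Scaled intensity on each array (log axis) for the 10 members past the threshold at 2-fold or more, with animal arrays in red to the left of vegetal arrays in blue and a bar at each mean of 3 arrays. The groups do not overlap in any of the 10 genes, and the vegetal values of *hdac9.S* lie at or under the grey band, the range over arrays of the highest unspiked control (4.1 to 6.7).

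Both acetyltransferase members were higher in animal samples. They are the 2 copies of kat7, which encodes a MYST-family enzyme (also called HBO1) that acetylates histones and, in mammalian cells, works at replication origins. The copy *kat7.S* had intensities of 28.2, 33.5 and 33.6 in animal samples, against 6.3, 8.7 and 6.4 in vegetal samples. Every animal array was above every vegetal array, and the vegetal values were close to the unspiked controls, with 2 of 3 vegetal arrays above them. The difference was 2.17 (4.49-fold, 95% interval 2.92 to 6.91; adjusted p = 1.94e-05). The copy *kat7.L* had 17.7, 21.0 and 18.0 in animal samples and 4.9, 7.9 and 8.7 in vegetal samples, again without overlap. Its vegetal values were also close to the unspiked controls, though above them on all 3 arrays. *kat7.L* was 2.71-fold higher in animal samples (95% interval 1.64 to 4.47; adjusted p = 0.00244). A dimmer probe set of *kat7.L* had a difference of 0.83 that did not pass (adjusted p = 0.0728).

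Deacetylases, which remove acetyl groups from histones and other proteins, went both ways: 4 of 9 were higher in animal samples, 3 in vegetal samples, and 2 did not pass. Animal-side members of the greatest size were outside the class I nuclear enzymes. *sirt1.L*, an NAD-dependent deacetylase, had intensities of 204.3, 162.0 and 160.4 in animal samples, against 56.6, 76.9 and 81.0 in vegetal samples. All 3 animal arrays stood above all 3 vegetal arrays, and the difference was 2.47-fold (95% interval 1.94 to 3.14; adjusted p = 8.32e-06). That call belongs to the brightest probe set: another 2 tested probe sets of *sirt1.L* gave differences of 0.10 and -0.31, and neither passed.

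*hdac10.L*, whose human counterpart deacetylates polyamines, had 26.9, 23.5 and 33.7 in animal samples, against 13.4, 15.3 and 10.5 in vegetal samples. It was 2.15-fold higher in animal samples (95% interval 1.42 to 3.24; adjusted p = 0.00381), with no overlap. *hdac9.S*, a class IIa deacetylase gene, had 28.3, 17.8 and 11.1 in animal samples and 4.2, 2.9 and 1.7 in vegetal samples. No vegetal array was above the unspiked controls, so the vegetal group gives only a bound, and the gene passed the filter through its animal arrays. Taken against the highest unspiked control of each array, *hdac9.S* was at least 3.15-fold higher in animal samples (adjusted p = 0.000231 for the measured difference).

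The nuclear class I deacetylases hdac1, hdac2, hdac3 and hdac8 had smaller differences by their representative probe sets. *hdac1.S*, a catalytic subunit of the NuRD, Sin3 and CoREST complexes, was 1.36-fold higher in animal samples (difference 0.45; adjusted p = 0.00087), and its other tested probe set was also higher there. Its homeolog *hdac1.L* had 1750.0, 1750.7 and 1748.4 in animal samples, against 2109.8, 1868.1 and 2050.9 in vegetal samples. No overlap was seen, but the difference was only -0.20 (1.15-fold higher in vegetal samples; adjusted p = 0.03). Leaving out any single array but vegetal replicate 2 ended this call (adjusted p 0.0573 to 0.111). *hdac2.S* was 1.28-fold higher in vegetal samples (adjusted p = 0.00842, and 0.0501 without vegetal replicate 2). *hdac8.L* was 1.22-fold higher there (adjusted p = 0.0468), with adjusted p of 0.0546 to 0.199 when any single array but animal replicate 2 was left out. *hdac3.S* (difference -0.19) and *hdac6.L*, a tubulin deacetylase (difference -0.36), did not pass, although *hdac6.L* passed without animal replicate 2 (adjusted p = 0.0446). A dimmer probe set of *hdac3.S* had a difference of the other sign, 0.73, that did not pass either (adjusted p = 0.076).

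SET-domain methyltransferases add methyl groups to lysines, and 2 of the 6 tested were higher in animal samples, 3 in vegetal samples, and 1 did not pass. *setd1b.S*, a catalytic subunit of a COMPASS complex that methylates histone H3 at active genes, had intensities of 91.0, 90.5 and 87.5 in animal samples, against 35.1, 37.7 and 40.1 in vegetal samples. The animal arrays differed from each other by a few units and lay far above the vegetal ones (2.39-fold, 95% interval 1.88 to 3.03; adjusted p = 1.32e-05). *setd5.L*, a SET-domain gene, had 37.4, 44.9 and 47.1 in animal samples, against 17.8, 23.2 and 18.9 in vegetal samples. It was 2.16-fold higher in animal samples without overlap (95% interval 1.55 to 3.03; adjusted p = 0.000789).

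On the vegetal side, *setd6.L*, whose human counterpart methylates a subunit of NF-kappaB, had 91.6, 105.3 and 78.4 in animal samples, against 212.8, 224.2 and 175.2 in vegetal samples. It was 2.23-fold higher in vegetal samples without overlap (95% interval 1.80 to 2.75; adjusted p = 8.51e-06). *setdb1.L*, which methylates histone H3 at silenced repeats and genes, was 1.76-fold higher in vegetal samples (difference -0.81; adjusted p = 0.000734), while its other tested probe set had a difference of -0.46 that did not pass. *setd4.L* was 1.75-fold higher there by its representative probe set (difference -0.80; adjusted p = 0.0172), a call lost without animal replicate 2 (adjusted p = 0.0816) or vegetal replicate 3 (0.0637). Its other tested probe set passed in the opposite direction, as described below. The heterochromatin enzyme gene *suv39h1.L* had 1016.1, 883.1 and 881.6 in animal samples and 740.4, 870.9 and 890.6 in vegetal samples. Those groups overlapped, and the difference of 0.15 did not pass (95% interval -0.04 to 0.35; adjusted p = 0.174). *setdb2.S* was too dim to be tested.

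Of the 6 lysine demethylases tested, 2 were higher in animal samples, 3 in vegetal samples, and 1 did not pass. *kdm1a.S*, the flavin-dependent enzyme LSD1 that works with CoREST, was 1.42-fold higher in animal samples (difference 0.51; adjusted p = 0.00346), while its other tested probe set had a difference of -0.11 that did not pass. The call of *kdm1a.S* was also lost with no filter (adjusted p = 0.0927), without the variance trend (0.0539), with arrays centred on their medians (0.153) and with probe sets averaged (0.189). *kdm2b.L*, which in mammals brings a variant Polycomb complex to CpG islands, was 1.35-fold higher in animal samples by its representative probe set (difference 0.44; adjusted p = 0.000452). Its other tested probe set passed in the opposite direction, as described below. Both copies of kdm3a, which removes silencing methyl marks from histone H3, were higher in vegetal samples: *kdm3a.S* by 1.56-fold (difference -0.64; adjusted p = 5.23e-05) and *kdm3a.L* by 1.25-fold (difference -0.32; adjusted p = 0.0104). *kdm7a.S* was 1.38-fold higher in vegetal samples as well (difference -0.46; adjusted p = 0.00123). On the spiked controls the calls of *kdm3a.S*, *kdm3a.L* and *kdm7a.S* were all lost (differences -0.40, -0.08 and -0.22). The call of *kdm2b.L* was lost with arrays centred on their medians (difference 0.17). *kdm6a.S*, the demethylase UTX that removes the Polycomb mark, had 1045.3, 1014.4 and 1019.7 in animal samples and 1050.3, 1077.5 and 1104.6 in vegetal samples. Each vegetal array was above each animal array, but the difference was only -0.07 and did not pass (95% interval -0.22 to 0.08; adjusted p = 0.434).

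Arginine methyltransferases included 1 call among 4 tested genes. prmt5 makes symmetric dimethylarginine on histones and splicing proteins, and prmt1 makes most asymmetric dimethylarginine. *prmt5.S* had intensities of 54.3, 40 and 37.2 in animal samples, against 90.6, 72.6 and 104.7 in vegetal samples. It was 2.04-fold higher in vegetal samples without overlap (95% interval 1.53 to 2.73; adjusted p = 0.000464). Its homeolog *prmt5.L* had 408.2, 397.1 and 392.5 in animal samples and 376.9, 359.7 and 362.9 in vegetal samples. Those groups did not overlap either, with the animal arrays higher, but the difference of 0.12 did not pass (adjusted p = 0.24). *prmt1.L* had 3160.7, 3396.6 and 3774.2 in animal samples and 3758.6, 3233.1 and 3699.4 in vegetal samples, which overlapped (difference -0.05; adjusted p = 0.634). *prmt1.S* had a difference of 0.14 that did not pass (adjusted p = 0.109).

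Polycomb repressive complex 2 methylates histone H3 to keep genes silent, with ezh2 as the catalytic subunit, suz12 as the scaffold and eed as the subunit that binds the mark. Of its 4 members, 2 were higher in animal samples, none in vegetal samples, and 2 did not pass. *suz12* had 1143.4, 1233.6 and 1214.4 in animal samples, against 799.3, 779.5 and 714.4 in vegetal samples. It was 1.57-fold higher in animal samples without overlap (95% interval 1.40 to 1.76; adjusted p = 5.96e-06), and all 3 of its tested probe sets, which carry 2 gene IDs under that symbol, were higher there. *eed.L* had 192.7, 168.6 and 208.2 in animal samples, against 139.4, 159.0 and 118.9 in vegetal samples without overlap (1.37-fold; adjusted p = 0.0104, and 0.0533 without animal replicate 3). *eed.S* had 208.7, 213.3 and 187.0 in animal samples and 240.4, 228.5 and 198.1 in vegetal samples, which overlapped (difference -0.13; adjusted p = 0.356). The catalytic gene *ezh2.L* had 544.8, 489.0 and 455.2 in animal samples and 433.2, 468.1 and 528.3 in vegetal samples. Its groups overlapped and its difference of 0.06 did not pass (95% interval -0.15 to 0.27; adjusted p = 0.639).

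DNA methyltransferases were represented by the 2 copies of dnmt1, the maintenance enzyme that restores methyl marks on newly copied DNA, and both were higher in vegetal samples. *dnmt1.L* had 1476.4, 1336.5 and 1235.1 in animal samples, against 1575.1, 1608.0 and 1758.5 in vegetal samples (1.22-fold higher in vegetal; adjusted p = 0.00807). *dnmt1.S* had 1031.6, 940.9 and 871.7 in animal samples, against 1182.6, 1170.1 and 1211.1 in vegetal samples (1.26-fold higher in vegetal; adjusted p = 0.00293). Neither pair of groups overlapped. Only the brightest probe set of *dnmt1.S* gave this direction, since another 2 tested probe sets of the same gene were higher in animal samples. The dimmest of these had a vegetal value under the unspiked controls.

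Genes with smarc names encode remodeling ATPases and other subunits of the BAF (SWI/SNF) complex, along with ISWI and other related enzymes. Of the 12 tested, 2 were higher in animal samples, 4 in vegetal samples, and 6 did not pass. *smarcal1.L*, an annealing helicase that acts at stalled replication forks, had 120.2, 125.6 and 113.2 in animal samples, against 274.0, 223.7 and 234.2 in vegetal samples. It was 2.03-fold higher in vegetal samples without overlap (95% interval 1.71 to 2.42; adjusted p = 4.02e-06). By their representative probe sets the ATPase genes had small differences: *smarca2.L* 0.05, *smarca4.S* -0.14 and the ISWI gene *smarca5.S* -0.06, none of which passed. Other tested probe sets of *smarca2.L* had differences of -0.18 and 0.35 that did not pass either. For the dim *smarca4.S* the 95% interval was wide (-0.72 to 0.44), so a larger difference is not excluded.

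Among the BAF subunits, *smarce1.L* was 1.62-fold higher in vegetal samples (difference -0.70; adjusted p = 0.000125), but 2 other tested probe sets of the gene had differences of -0.10 and -0.03 that did not pass. *smarcd2.L* was 1.24-fold higher in vegetal samples (difference -0.31; adjusted p = 0.0104). *smarcd1.L* had 2379.8, 2664.0 and 2931.2 in animal samples and 3519.4, 2810.4 and 3032.7 in vegetal samples. Its groups overlapped although it passed narrowly as higher in vegetal samples (difference -0.23; adjusted p = 0.0495), and the call ended without any single array but animal replicate 3 or vegetal replicate 2 (adjusted p 0.0732 to 0.23). *smarcc1.L*, a core subunit, was 1.21-fold higher in animal samples (difference 0.27; adjusted p = 0.0064), while its other tested probe set had a difference of 0.10 that did not pass. *smarcb1.S*, *smarcc2.L* and *smarcd3.S* had differences of 0.15, 0.22 and 0.28 that did not pass, and *smarcd3.S* passed without animal replicate 3 (adjusted p = 0.0378). A dimmer probe set of *smarcc2.L* was higher in animal samples (difference 1.05; adjusted p = 0.0264). It had 11.7, 19.8 and 12.3 in animal samples, against 5.4, 8.7 and 6.9 in vegetal samples. Those vegetal values were close to the unspiked controls, and the probe set passed the filter through its animal arrays. *smarcad1.S*, a related remodeler outside BAF, was 1.40-fold higher in animal samples although its groups overlapped (difference 0.49; adjusted p = 0.0306), a call lost without any single array but animal replicate 3 or vegetal replicate 1 (adjusted p 0.0641 to 0.131).

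CHD remodelers, chromodomain ATPases, included 1 call among 4. *chd4.L*, the ATPase of NuRD, was 1.36-fold higher in vegetal samples (difference -0.44; adjusted p = 0.00127). *chd7.L*, the gene mutated in human CHARGE syndrome, had 3191.3, 3410.4 and 3830.9 in animal samples and 3146.5, 3163.5 and 3237.5 in vegetal samples, which overlapped (difference 0.12; adjusted p = 0.181). Another 2 of its probe sets, dimmer than the first, were higher in animal samples with differences of 0.69 and 0.89. The dimmest probe set of *chd7.L* had a difference of 0.26 that did not pass. With quantile normalization and on the spiked controls *chd7.L* was called higher in animal samples (difference 0.36 in each). It was also called with probe sets averaged. *chd1.L* and *chd1.S* each had a difference of -0.08 that did not pass.

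Histone chaperones hand histones to DNA or store them. Of the 5 tested, 2 were higher in animal samples, none in vegetal samples, and 3 did not pass. *asf1b.L*, which carries histones H3 and H4, had 1128.6, 1151.7 and 1205.0 in animal samples, against 681.4, 697.5 and 609.5 in vegetal samples. It was 1.76-fold higher in animal samples without overlap (95% interval 1.56 to 1.98; adjusted p = 7.59e-07). The related gene *asf1a.L* was too dim to be tested, with 6.8, 5.4 and 9.4 in animal samples and 0.7, 9.3 and 10.8 in vegetal samples.

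The chaperone nucleoplasmin (npm2) stores histones H2A and H2B in the frog egg and decondenses sperm chromatin after fertilization. *npm2.L* had 854.9, 736.5 and 812.5 in animal samples, against 690.1, 688.3 and 682.8 in vegetal samples (1.16-fold higher in animal; adjusted p = 0.0338). Its groups did not overlap, but leaving out any single array but animal replicate 2 ended the call (adjusted p 0.0556 to 0.13). *npm2.S* had 176.7, 234.3 and 188.0 in animal samples and 263.2, 237.2 and 211.7 in vegetal samples, overlapping, with a difference of -0.25 that did not pass (adjusted p = 0.107, and 0.0326 without animal replicate 2). nap1l1 encodes another chaperone of H2A and H2B. *nap1l1.S* had 1736.8, 1788.9 and 1990.9 in animal samples and 1968.1, 1767.8 and 2106.8 in vegetal samples (difference -0.08; adjusted p = 0.429). *nap1l1.L* had 99.8, 78.8 and 108.0 in animal samples and 92.9, 94.5 and 99.7 in vegetal samples (difference -0.01; adjusted p = 0.945). Both copies overlapped between groups.

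Among the katanin names, *katnbl1.L* had 140.2, 117.0 and 147.4 in animal samples, against 221.8, 246.4 and 242.1 in vegetal samples. It was 1.76-fold higher in vegetal samples (adjusted p = 4.37e-05). *katna1.S* (difference 0.28) and *katnal2.L* (-0.04) did not pass, and *katna1.S* passed without vegetal replicate 2 (adjusted p = 0.048). *katnip.L* was not tested.

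The direction of several members depended on which probe set was read. Of the 19 members with at least 2 tested probe sets, 10 had differences of the same sign in all of them. In 3 members (15.8%) probe sets passed in opposite directions, beside 124 of 1692 genes on the whole array (7.33%). The widest gap was in *setd4.L*. Its representative probe set had 19.5, 13.2 and 18.6 in animal samples and 26.9, 27.9 and 34.0 in vegetal samples. Its other probe set had 143.3, 112.5 and 132.1 in animal samples, against 0.4, 4.6 and 6.4 in vegetal samples. That second probe set had no vegetal value above those controls, passed the filter through its animal arrays alone, and was at least 22.8-fold higher in animal samples (adjusted p = 4.28e-07 for the measured difference). The opposite directions of *setd4.L* rest on that probe set and on a representative one whose call was lost without either of 2 single arrays. Its count as higher in vegetal samples thus stands for the representative probe set only, and the direction of the gene is not settled.

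In *dnmt1.S* the second probe set had 175.5, 161.9 and 111.4 in animal samples, against 76.7, 75.9 and 73.8 in vegetal samples. It was higher in animal samples by 0.96 (adjusted p = 0.000191), and the dimmest one, with a difference of 2.10, was as well (adjusted p = 0.0165). That dimmest one had 36, 34.5 and 13.9 in animal samples, against 12.6, 1.4 and 12.4 in vegetal samples. It passed the filter through its animal arrays, and 2 of its 3 vegetal arrays were above the unspiked controls. In *kdm2b.L* the second probe set had 139.3, 151.0 and 156.9 in animal samples, against 224.3, 242.4 and 221.1 in vegetal samples, with a difference of -0.62 (adjusted p = 0.000221). *kdm6a.S* and *nap1l1.S*, uncalled by the brightest probe set, each had another that was higher in animal samples (differences 0.33 and 0.40). In 13 of the 19 members (68.4%) the dimmer probe sets were shifted toward animal relative to the brightest, beside 62.5% of genes with several probe sets. Which transcript each probe set detects was not tested.

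**Figure D3:**
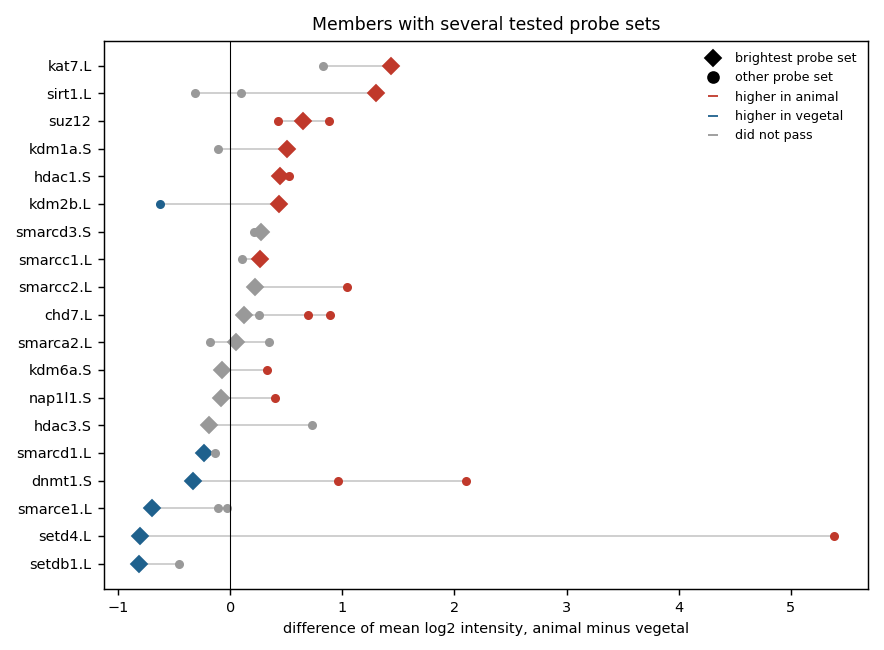
Animal minus vegetal difference (log2) of every tested probe set for the 19 members with at least 2, diamonds for the brightest probe set and circles for the others. *setd4.L*, *dnmt1.S* and *kdm2b.L* hold both red (higher in animal) and blue (higher in vegetal) points, and *setd4.L* spans -0.80 to 5.38.

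The 2 copies of a gene could differ from each other. In 10 members' pairs both copies were tested, and the log2 ratio of .L to .S on each array was compared between animal and vegetal samples, which cancels the scaling of the array. That ratio differed in 4 of the 10 pairs, beside 43.6% of the 1357 pairs on the whole array. For prmt5 the .L copy was shifted toward animal relative to .S by 1.15 (95% interval 0.68 to 1.62; adjusted p = 0.00403). For hdac1 the shift was -0.64 (95% interval -0.96 to -0.32; adjusted p = 0.00862), with *hdac1.S* higher in animal and *hdac1.L* higher in vegetal samples.

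For eed the .L copy was shifted toward animal by 0.58 (95% interval 0.22 to 0.95; adjusted p = 0.0212), and for kat7 the .S copy was shifted further toward animal than .L (-0.73; 95% interval -1.23 to -0.22; adjusted p = 0.03). The copies of kdm3a (0.32; adjusted p = 0.0503) and npm2 (0.47; adjusted p = 0.0809) did not pass here, although both did under some alternatives given at the end. For dnmt1 the difference between copies was 0.04 (95% interval -0.19 to 0.27; adjusted p = 0.766), and for chd1, nap1l1 and prmt1 it did not pass either. The calls of prmt5 and hdac1 stood in each alternative run, whereas those of eed and kat7 did not: each was lost without animal replicate 1 or 3, eed also without vegetal replicate 1 or 3, and kat7 also without animal replicate 2 or vegetal replicate 2 (adjusted p 0.0531 to 0.0886). In vegetal samples both kat7 copies lay close to the unspiked controls (means of 7.13 for *kat7.S* and 7.17 for *kat7.L*), so their ratio there is poorly resolved. Probe sets designed on 1 copy may also bind the other, so the values of all pairs are an uncertain account of each copy.

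**Figure D4:**
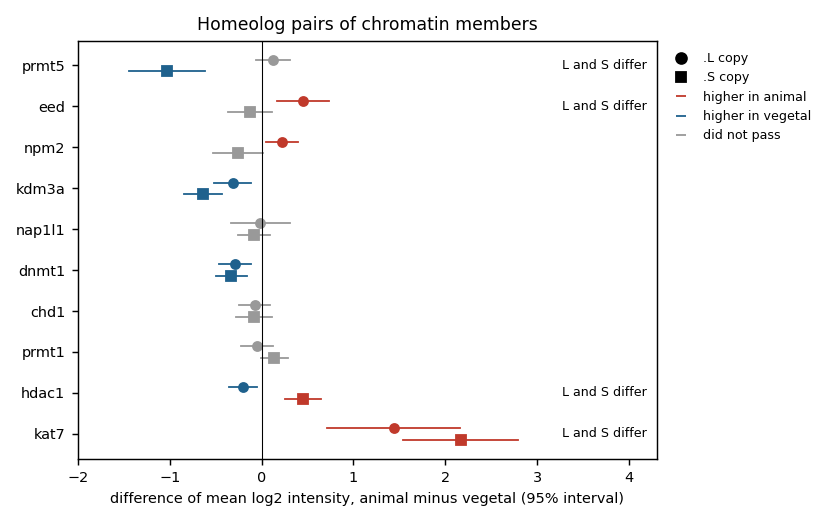
Animal minus vegetal difference (log2, 95% interval) of the .L copy (circle) and .S copy (square) for the 10 member pairs with both copies tested. The pairs prmt5, hdac1, eed and kat7 are marked where the copies differed from each other.

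How arrays are scaled moved the balance of calls in the members as in all genes. As deposited, 47.1% of the members' calls were higher in animal samples and 53.3% of all genes' calls were. With quantile normalization the members gave 18 higher in animal and 17 higher in vegetal (51.4% animal; 48.6% of all genes' calls). With arrays centred on their medians they gave 9 and 28 (24.3%; all genes 26.6%), and with scaling to the spiked controls 23 and 6 (79.3%; all genes 77.1%). The median of all genes moved with them, at 0.03 as deposited, -0.02 after quantile normalization, -0.24 after median centring and 0.27 on the spiked controls. The members' medians were -0.05, 0.06, -0.32 and 0.19. Median centring and scaling to the spiked controls shift every gene's difference by the same amount, so there the medians had to move together. Directions of small differences hold only relative to those shifts.

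Larger differences kept their direction, which under median centring and the spiked controls follows from a shift that is the same for every gene. That gives the calls no further support. Under all 3 other scalings *asf1b.L*, *hdac10.L*, *hdac9.S*, *kat7.L*, *kat7.S*, *setd1b.S*, *setd5.L*, *sirt1.L* and *suz12* stayed higher in animal samples, 9 of the 16. *katnbl1.L*, *prmt5.S*, *setd6.L*, *setdb1.L*, *smarcal1.L* and *smarce1.L* stayed higher in vegetal samples, 6 of the 18. The 2 dnmt1 copies both lost their calls on the spiked controls, with differences of -0.05 for *dnmt1.L* and -0.09 for *dnmt1.S*. Calls of *chd4.L*, *hdac2.S* and *smarcd2.L* were among the others lost on the spiked controls (differences -0.20, -0.12 and -0.07). *dnmt1.L* also lost its call with quantile normalization (difference -0.18; adjusted p = 0.0704), with no filter (0.0569) and without the variance trend (0.0674). *eed.L* lost its call when arrays were centred on their medians (difference 0.18; adjusted p = 0.258) and with no filter (0.0638).

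**Figure D5:**
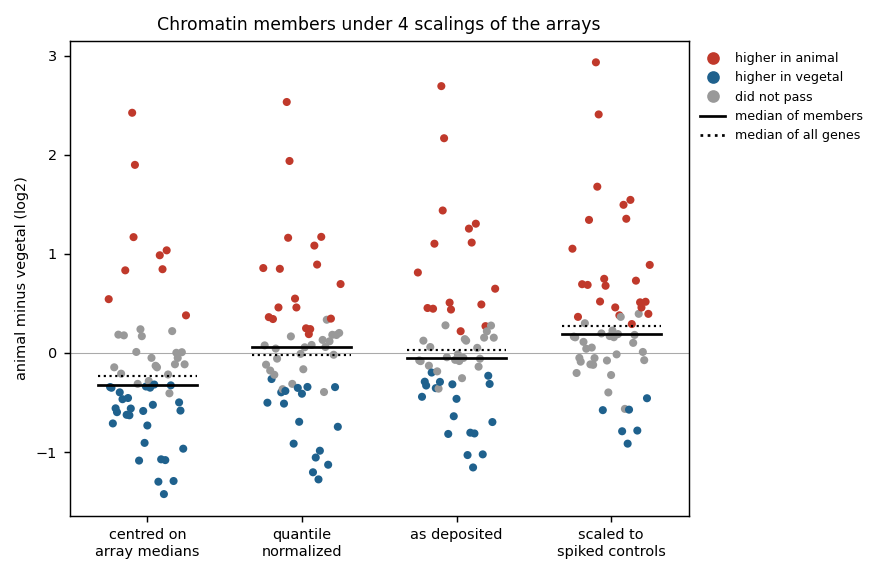
Animal minus vegetal difference (log2) of each tested member under 4 scalings of the arrays, red for higher in animal, blue for higher in vegetal and grey for not passing. The solid line is the members' median and the dotted line that of all genes, and the largest differences stay on their side of 0 while the cloud of small ones moves across it. Median centring and scaling to the spiked controls shift all points by the same amount, so there the largest must keep their side.

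Partner subunits and further enzymes outside the symbol rule gave a wider view of the same machinery. In a list of 142 other named chromatin genes, 130 were tested, 33 of which (25.4%) were higher in animal samples and 21 (16.2%) were higher in vegetal samples, with a median difference of 0.13. Among all genes tested, 27.1% were higher in animal samples and 23.7% in vegetal samples. In the group of acetyltransferases and their partners, which also holds the enzyme genes crebbp and hat1, 6 of 10 were higher in animal samples and none in vegetal samples. Among them *ing5.S*, a reader subunit found in HBO1 complexes with kat7, had 426.5, 351.7 and 405.4 in animal samples, against 18.4, 20.8 and 16.4 in vegetal samples (21.3-fold, 95% interval 17.0 to 26.7; adjusted p = 7.38e-12). It was picked out of the list after its values were seen, as were the genes named with it below. Its homeolog *ing5.L* had a difference of 0.34 that did not pass (adjusted p = 0.107). Chaperones of the list were higher in animal samples in 7 of 19 and in vegetal samples in 1, with *chaf1b.L*, a subunit of the replication-coupled assembly factor CAF-1, 8.55-fold higher in animal samples (76.8 ± 8.9 in animal and 9.03 ± 1.51 in vegetal samples; adjusted p = 5.34e-08). The gene of another CAF-1 subunit, *chaf1a.L*, had a difference of -0.20 that did not pass (adjusted p = 0.086).

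On the vegetal side *atrx.L*, an SNF2-family remodeler of heterochromatin, had 64.5, 58.5 and 61.6 in animal samples, against 858.3, 704.9 and 644.0 in vegetal samples (11.9-fold higher in vegetal, 95% interval 9.95 to 14.2; adjusted p = 5.57e-12). *cbx8.S*, a chromodomain subunit of Polycomb repressive complex 1, was 2.69-fold higher in vegetal samples (adjusted p = 1.39e-06). In its group of 17 tested, 2 were higher in animal samples and 4 in vegetal samples. That group also holds partner genes of Polycomb repressive complex 2 (jarid2, mtf2 and aebp2), and *mtf2.S* was among its animal calls. The counts are therefore not those of complex 1 alone. The homeolog of *cbx8.S*, *cbx8.L*, had a difference of 0.43 that did not pass (adjusted p = 0.17). The group listed as NuRD, Sin3 and CoREST partners of the class I deacetylases had 5 higher in animal and 5 higher in vegetal samples of 22 tested. It also holds mbd1, which is not a subunit of these complexes, and *mbd1.L* was among its animal calls. Animal and vegetal counts follow for the other groups. The group listed as ISWI partners had 1 and 3 of 7. That group also holds the remodeler genes hells and atrx, which are not ISWI partners, and *hells.L* and *atrx.L* were among its vegetal calls. BAF and PBAF had 1 and 1 of 8, and INO80 and SRCAP partners 3 and 2 of 12. COMPASS had 3 and 1 of 9, other methyltransferases 2 and 1 of 13, and HP1 genes 2 and 1 of 4. Sirtuins had 1 and 1 of 6, and DNA methylation readers and erasers 0 and 1 of 3. The animal call of *ash2l.L* in COMPASS (8.3, 4.1 and 7.0 in vegetal samples) came from a probe set that passed the filter through its animal arrays. The vegetal call of *ruvbl2.S* among INO80 and SRCAP partners (2.2, 8.9 and 6.4 in animal samples) likewise passed it through its vegetal arrays.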

How the data were processed

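Total RNA of 3 animal and 3 vegetal samples was hybridized to 1 one-colour array each, per the labels' protocols. For each array the authors deposited linear intensities, 1 per probe set, computed with GCOS (version not given), per the submitters' processing notes. Any background correction is not given in the sources used here. Trimmed by 2%, mean intensity was 150.0 on every array, so arrays were used as scaled. No genome build is named, and no coordinates are given. Gene names came from the platform annotation, which can be old.

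Intensities were floored at 1 and converted to log2. Control probe sets (96) and the dimmest 40% by mean log2 (mean intensity under 6.94) were left out. The groups were compared with limma 3.58.1 in R 4.3.3 (lmFit, eBayes with trend, two-sided), with no block. Homeolog ratios were fitted over 1357 pairs. A group with no array above the highest of 59 unspiked controls (4.1 to 6.7 per array) gave only a bound. The number of arrays limits the precision.

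Members and gene lists were chosen with earlier results of these data known. Values on every array are given for members past the threshold at 2-fold or more, their homeologs, the brightest member of each class, and all DNA methyltransferases, Polycomb complex 2 members and chaperones. Alternatives were scaling, filters, an offset of 16, no trend, a replicate block, other probe sets and leaving out each array. Deviations of same-numbered samples had correlations of -0.023 to 0.0063, which gave no sign of pairing by number. With so few arrays these values cannot exclude pairing, and the labels do not state it.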

Additional observations from a re-analysis of the deposited data

How the results depend on the processing

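Each member was run under 14 or 15 alternatives, since leaving out the lowest 60% dropped the dimmer ones, *hdac10.L*, *hdac9.S*, *kat7.L*, *kat7.S* and *setd5.L* among them. Under those run, 8 of the 16 animal-side calls, 4 of the 18 vegetal-side calls (*katnbl1.L*, *prmt5.S*, *setd6.L* and *smarcal1.L*) and 6 of the 23 uncalled members kept their status, although the next brightest probe set of *kat7.L*, counted apart, did not pass (adjusted p = 0.0728); the cause of the changes was not tested unless given. Scaling moved counts most. Median centring gave 9 members higher in animal and 28 higher in vegetal samples, and 15 and 45 other chromatin genes; scaling to the spiked controls gave 6 members higher in vegetal samples, and 54 and 7 other chromatin genes. No filter gave 12 members higher in animal and 14 higher in vegetal samples (8 calls lost), and no variance trend 13 and 14 (7 lost). Over all genes median centring gave 1193 and 3284 and the spiked controls 2785 and 826, against 2177 and 1905 as deposited. The members' median was 0.057 after quantile normalization, -0.32 after median centring, 0.19 on the spiked controls and 0.0596 with probe sets averaged. On the spiked controls *hdac1.L* turned to 0.0423 and *smarcd1.L* to 0.0099, median centring turned *npm2.L* to -0.0497, and quantile normalization turned *prmt1.L* to 0.19 (called). Reading the next brightest probe set turned *dnmt1.S* to 0.96, *kdm6a.S* to 0.33 and *nap1l1.S* to 0.40, and averaging probe sets turned *dnmt1.S* to 0.91, *setd4.L* to 2.29 and *kdm2b.L* to -0.09 (uncalled). Averaging also ended the calls of *sirt1.L* (adjusted p = 0.0864), *setdb1.L* (0.322) and *smarce1.L* (0.0525), and made the copies of dnmt1 differ (-1.20; adjusted p = 0.0233). The homeolog pairs that differed numbered 2 with no filter, 2 with the replicate block and 2 to 4 with 1 array left out. Other runs added pairs. With the offset of 16 the copies of kdm3a (adjusted p = 0.0473) and npm2 (0.0452) differed. Leaving out the lowest 60% had the same result for kdm3a (0.0283) and npm2 (0.0424), and npm2 also passed without animal replicate 2 (0.0261). The replicate block gave 15 members higher in animal and 16 higher in vegetal samples, ending the calls of *hdac1.L*, *npm2.L* and *smarcd1.L* and changing no other member's call. Values near the unspiked controls (4.1 to 6.7), as in vegetal *kat7.S*, *kat7.L* and *hdac9.S*, limit what these arrays resolve.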
